A study of Caenorhabditis elegans with 2 samples.

Results

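The data described here are ChIP-seq peaks on chromosome III around F26F4.8, the gene whose tagged product was precipitated, and around 8 of its neighbours: nhl-2, tag-340, kbp-2, rom-1, F26F4.2, rars-1, mmab-1 and set-2. The 9 genes were chosen by measured values: each is F26F4.8 itself, or holds or lies next to the summit of a conservative peak around it. All 9 were found among the 19973 protein-coding genes of the annotation. Whole Caenorhabditis elegans L4 larvae, 48 hours old and synchronised by starvation at the L1 stage, made up 1 group of 2 biological replicates. Their strain, OP776, carries the transgene wgIs776, which holds F26F4.8 fused to TY1, EGFP and 3xFLAG tags together with unc-119(+), in animals with the unc-119 allele tm4063. The fusion protein was recovered with an antibody against GFP. No larvae without the transgene and no other condition were analysed here.

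F26F4.8 encodes a protein with C2H2 zinc fingers, small folds held by zinc that often contact DNA or RNA. ChIP-seq recovers DNA lying near the tagged protein after fixation, and a peak is a place where more fragments were recovered than in a control. Transgenes of this kind are made from a genomic clone, so the tagged gene usually travels with stretches of the neighbouring genes and with its own regulatory DNA. In such animals a DNA fragment from the transgene and a fragment from the chromosome have the same sequence apart from the inserted tags. Neither the ends of the cloned stretch, the number of transgene copies and their location, nor the strain of the control, could be read from the labels used here. Fragments from the transgene and from chromosome III cannot be told apart in the peak lists.

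The span was delimited by the outermost summits of the run of conservative peaks around F26F4.8, III 4895919 to 4927405 on ce11, and is 31487 bp long. It was compared with both sides of it, out to 4.84 Mb on the left and 4.97 Mb on the right, a stretch of 130 kb in all. The conservative set is the authors' list of peaks whose rank repeated between the replicates at an irreproducible discovery rate (IDR, an estimate of how many of the peaks down to that rank would fail to recur) of up to 0.01. It held 978 of the 109990 peaks of the ranked list that it came from, or 0.889%. Signal is the authors' enrichment value per peak, in arbitrary units that are comparable within a list only. In the span 12 of 48 ranked peaks were in the conservative set, and on the sides 0 of 122 were. This concentration chose the span, so the counts describe it and nothing was tested with them.

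The DNA under the 4 highest peaks of the span and under the peak just upstream of F26F4.8 is shown, because these are the sites that a reader would examine for a shared sequence. Each is a whole peak of 264 bp, read on the plus strand of the RefSeq WBcel235 genome, with the summit and the 10 bases on each side of it in capitals. In order, they lie at chrIII:4895787-4896050, chrIII:4899887-4900150, chrIII:4902598-4902861, chrIII:4905473-4905736 and chrIII:4911395-4911658. Each label below gives the place of the summit alone, and the rest of a peak can reach into exons, introns or other DNA beside it.
nhl-2 coding exon: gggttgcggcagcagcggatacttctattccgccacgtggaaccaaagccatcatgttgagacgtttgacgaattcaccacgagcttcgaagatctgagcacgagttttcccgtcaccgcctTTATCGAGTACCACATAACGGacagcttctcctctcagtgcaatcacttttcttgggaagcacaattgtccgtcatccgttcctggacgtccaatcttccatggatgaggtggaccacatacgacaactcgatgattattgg
between nhl-2 and tag-340: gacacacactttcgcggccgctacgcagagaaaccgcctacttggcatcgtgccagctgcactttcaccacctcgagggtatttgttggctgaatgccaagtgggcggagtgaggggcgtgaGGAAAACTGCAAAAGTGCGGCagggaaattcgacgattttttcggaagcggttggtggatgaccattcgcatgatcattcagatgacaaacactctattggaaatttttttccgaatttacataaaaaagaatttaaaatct
tag-340 coding exon: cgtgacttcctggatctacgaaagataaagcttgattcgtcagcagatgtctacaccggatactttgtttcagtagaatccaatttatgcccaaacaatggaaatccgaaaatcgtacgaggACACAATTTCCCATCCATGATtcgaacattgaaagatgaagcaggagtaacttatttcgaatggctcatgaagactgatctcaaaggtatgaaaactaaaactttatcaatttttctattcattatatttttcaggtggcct
upstream of F26F4.8: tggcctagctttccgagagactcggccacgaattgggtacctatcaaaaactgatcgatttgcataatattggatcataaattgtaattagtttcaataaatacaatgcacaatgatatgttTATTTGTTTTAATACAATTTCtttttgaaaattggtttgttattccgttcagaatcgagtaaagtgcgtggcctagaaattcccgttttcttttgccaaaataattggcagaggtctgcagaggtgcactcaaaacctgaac
intron of F26F4.2 and F26F4.9: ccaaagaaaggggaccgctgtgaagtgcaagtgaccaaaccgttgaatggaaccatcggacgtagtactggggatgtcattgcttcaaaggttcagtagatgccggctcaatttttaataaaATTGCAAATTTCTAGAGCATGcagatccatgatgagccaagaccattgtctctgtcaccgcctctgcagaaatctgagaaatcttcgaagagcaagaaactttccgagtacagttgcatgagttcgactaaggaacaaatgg

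At F26F4.8 itself (III 4903997 to 4905473, minus strand, 8 exons) the pooled ranked list held 3 peaks, and 0 of them were in the conservative set. The predicted protein has 302 residues, and a script found 6 matches to the C2H2 finger pattern in it. A peak in an intron had a pooled signal of 53.2, with overlapping peaks of 46.2 in replicate 1 and 23.1 in replicate 2, each from that replicate's own list. A coding exon peak had a pooled signal of 70.1, with 45.3 in replicate 1 and 25.6 in replicate 2. The third peak, with its summit 132 bp upstream of the gene's 5′ end, had a pooled signal of 64.1, with 32.3 in replicate 1 and 24.9 in replicate 2. All 3 pooled values lay above the side median of 24.0, and 2 of them lay above 62.9, the highest value on the sides. Their IDR values were 0.0316, 0.0177 and 0.0436, all above the limit of 0.01.

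**Figure D1:**
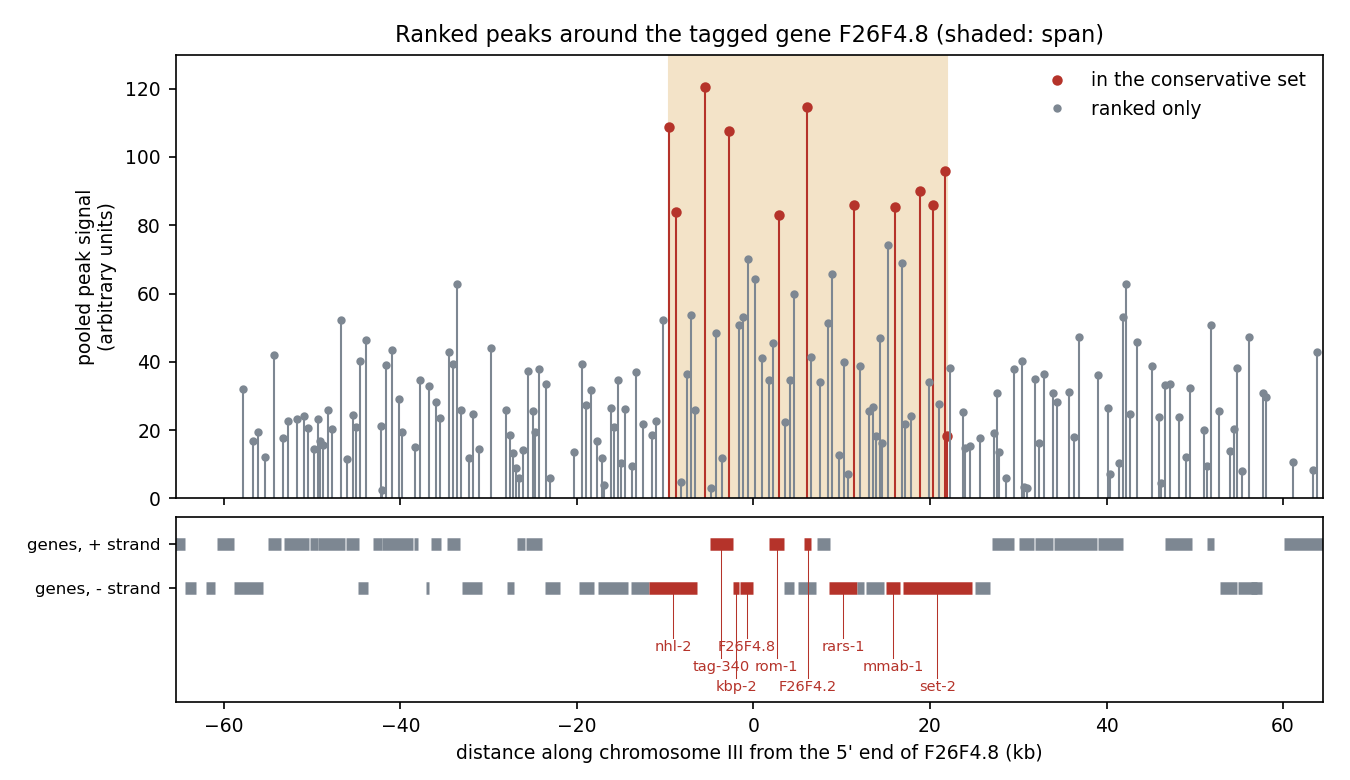
Pooled signal of each ranked peak (arbitrary units, top) and protein-coding genes on each strand (bottom, members in red) against distance in kb from the 5′ end of F26F4.8. Red points are the 12 conservative peaks, all inside the shaded span; 11 of them reach 83.1 or more, the twelfth has 18.1, and no peak on the sides exceeds 62.9.

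Among the members that act on RNA or chromatin, nhl-2 and set-2 hold the ends of the span. The gene nhl-2 encodes a TRIM-NHL protein that acts with microRNAs, and 2 of its 9 ranked peaks were in the conservative set. The conservative peak at the left edge, in a coding exon, had a pooled signal of 108.8, with 51.4 in replicate 1 and 63.6 in replicate 2. The next nhl-2 peak, also in a coding exon, had 84.0, with 34.2 in replicate 1 and 63.6 in replicate 2. Its remaining peaks were lower, and the median over all 9 was 36.5.

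The gene set-2 encodes a histone H3 lysine methyltransferase, and 4 of its 12 ranked peaks were in the conservative set, all with summits in coding exons. Their pooled signals were 89.9, 85.8, 95.9 and 18.1 from left to right. The first had 39.5 in replicate 1 and 46.7 in replicate 2. The second had 42.1 in replicate 1 and 37.6 in replicate 2. The third and the fourth overlap, their summits 199 bp apart, and both were matched to the same peaks of the replicates, 59.5 in replicate 1 and 57.3 in replicate 2. The fourth therefore adds no site of its own to the third. It was 966th by signal among the 978 conservative peaks, and 19 conservative peaks in the genome overlapped a stronger ranked peak in this way. The median over the 12 set-2 peaks was 26.4.

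Among the members that encode enzymes, each had a conservative peak in a coding exon. The gene rars-1 encodes the arginyl-tRNA synthetase of the cytoplasm, and its conservative peak had a pooled signal of 86.0, with 44.9 in replicate 1 and 35.5 in replicate 2. The gene mmab-1 encodes an adenosyltransferase of vitamin B12 metabolism, and its conservative peak had 85.3, with 51.3 in replicate 1 and 30.4 in replicate 2. The gene rom-1 encodes a rhomboid protease linked to EGF signalling in the vulva, and its conservative peak had 83.1, with 43.1 in replicate 1 and 43.2 in replicate 2. These 3 values are close to one another within the pooled list. A second mmab-1 peak, at 74.1, was the highest in the span outside the conservative set, at an IDR of 0.0396.

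The remaining members have less defined roles. The gene tag-340 encodes a START domain protein, and its conservative peak, in a coding exon, had a pooled signal of 107.5, with 54.8 in replicate 1 and 42.9 in replicate 2. The summit of the highest peak in the span lies between nhl-2 and tag-340, 934 bp from the first and 489 bp upstream of the second, and has an ncRNA gene, F26F4.14, within 200 bp. Its pooled signal was 120.4, with 67.9 in replicate 1 and 47.7 in replicate 2. The gene F26F4.2 encodes a PDZ domain protein and lies on the opposite strand inside F26F4.9, annotated with a glutaredoxin domain. A summit in an intron of both had a pooled signal of 114.6, with 55.2 in replicate 1 and 53.0 in replicate 2, and cannot be assigned to either gene. F26F4.9 thus holds a conservative summit too, although it is not among the 9 genes.

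The gene kbp-2, named for binding the kinetochore protein KNL-1 and annotated by RefSeq as a Mediator complex subunit, had 1 ranked peak, near its 5′ end. Its pooled signal was 50.8, with 12.4 in replicate 1 and 30.7 in replicate 2, and it was not in the conservative set. The tag-340 summit lies 439 bp from it, which admits it under the rule. Other genes next to a conservative summit, such as rpb-8 at 353 bp from the rars-1 summit, are not members. Thus 7 of the 9 genes hold a conservative summit, and F26F4.8 and kbp-2 only lie next to 1. The genes were chosen by such summits, so these counts follow from the choice. The share of all annotated genes with such a summit was not counted, while 0.889% of all ranked peaks were conservative. Of the 12 conservative summits 9 lie within 20 kb of F26F4.8, and the other 3 are in set-2.

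Besides F26F4.9, the span overlaps 4 protein-coding genes that are not members, and they held no conservative summit. Each of them lies next to such a summit, as kbp-2 does, so the stated rule alone does not set the members apart. The highest pooled signal was 34.6 in F26F4.12, 51.4 in cee-1, 38.8 in rpb-8 and 47.1 in ula-1. All 14 protein-coding genes that overlap the span held a ranked summit, and their highest signals were between 34.6 and 114.6, with a median of 84.2. Of the 38 genes on the sides alone, 32 held a ranked summit, with highest signals between 14.2 and 62.9 and a median of 35.4. Conservative summits lay in 8 of the 14 genes of the span and in 0 of the 38 on the sides. The summit at 114.6 lies in both F26F4.2 and F26F4.9, and it enters the 8 and the median of 84.2 for both. The span was bounded by such summits, so these counts follow from its choice. The share over all annotated genes was not counted.

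Across all ranked peaks, the median pooled signal was 43.5 in the span (quartiles 25.7 and 71.1, n = 48) and 24.0 on the sides (quartiles 15.01 and 34.7, n = 122), a ratio of 1.82. The left side had a median of 23.2 over 71 peaks and the right side 25.5 over 51, and the whole list had 23.8. The lowest value in the span was 3.16 and the highest 120.4, so the span and the sides overlap: 38 of the 48 peaks exceeded the side median and 16 exceeded the highest side peak. The 36 peaks of the span outside the conservative set had a median of 35.6, which is 1.49 times the side median. In bins of 5 kb the medians were between 26.6 and 69.0 in the 7 bins that touch the span, and between 10.6 and 33.6 in the 18 bins beyond them. In 5 of those 7 bins the pooled median exceeded every bin of the sides. The same held for 2 of 7 bins in replicate 1 and 3 of 7 in replicate 2, so the higher signal was not even along the span. The highest side peaks were in gipc-1 at 62.9, beyond ntl-9 at 62.8 and in a UTR of ntl-9 at 53.0.

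At the left edge, the first peak inside had a pooled signal of 108.8, and the first outside, in nhl-2 too, had 52.2, with 14.2 in replicate 1 and 37.1 in replicate 2. At the right edge, the last peak inside had 18.1 and the first outside, in set-2 too, had 38.3. The values at the right edge thus do not step down from inside to outside, since the outermost peak inside is the weak one that overlaps another. The nearest conservative summits beyond the span lay 206 kb to the left and 104 kb to the right, among 160 on chromosome III.

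Each replicate's own list showed higher signal in the span, with fewer peaks past the threshold. In replicate 1 the median was 26.9 over 48 ranked peaks in the span and 18.3 over 71 on the sides, a ratio of 1.47. Its thresholded list held 5 peaks in the span and 0 on the sides, against 376 of 64220 ranked peaks (0.585%) in the genome. In replicate 2 the median was 26.4 over 33 peaks in the span and 17.3 over 53 on the sides, a ratio of 1.53. Its thresholded list held 5 peaks in the span and 2 on the sides, against 366 of 59972 (0.61%) in the genome. These 2 lie in nhl-2, with summits 671 bp and 7 bp beyond the left edge, so the second is the edge peak itself, moved by a few bases. The other pooled set, which held 960 of 109723 ranked peaks (0.875%), had 10 of the span's 47 ranked peaks and 0 of 128 on the sides. Among the 12 conservative peaks, 5 overlapped a thresholded peak in both replicates and 4 in neither. Both overlapping set-2 peaks, matched to the same replicate peaks, count among these 5.

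**Figure D2:**
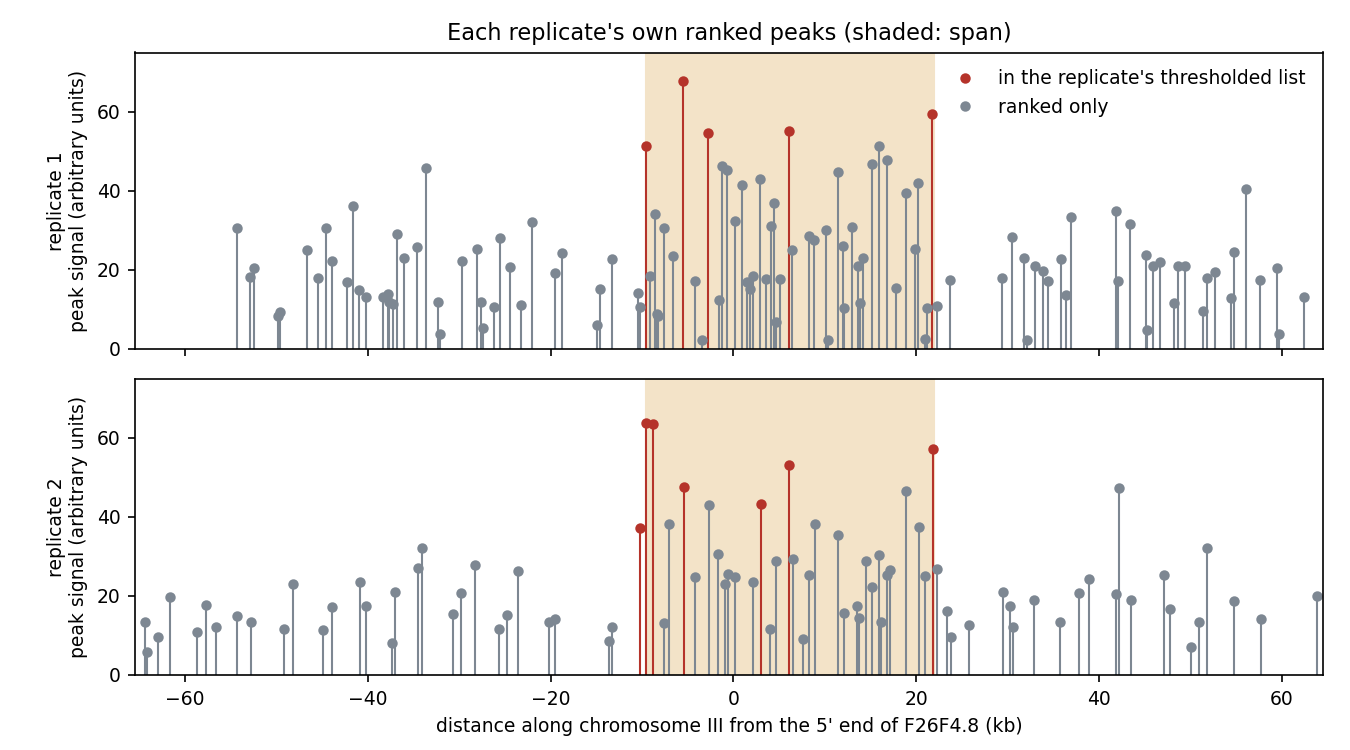
Signal of each ranked peak (arbitrary units) in the separate list of replicate 1 (top) and replicate 2 (bottom) against distance in kb from the 5′ end of F26F4.8; red points are in that replicate's thresholded list and the shading marks the span. The highest peak of the stretch lies in the span in replicate 1, at 67.9, and at its left edge in replicate 2, at 63.6.

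At the 12 conservative peaks the overlapping peak of replicate 1 had a signal between 34.2 and 67.9, with a median of 51.4, and 7 of them exceeded 45.7, the highest value on the sides. In replicate 2 the values were between 30.4 and 63.6, with a median of 47.2, and 6 exceeded 47.4, the highest value on the sides among peaks that do not touch the span. The remaining conservative peaks thus overlapped the side values in each replicate. Both overlapping set-2 peaks, matched to the same replicate peaks, count among the 7 and among the 6. Ranked peaks were also closer together in the span, at 1.52 per kb against 1.24 per kb on the sides in the pooled list. In replicate 1 the densities were 1.52 per kb in the span and 0.721 per kb on the sides. In replicate 2 they were 1.05 per kb in the span and 0.538 per kb on the sides. The ranked list that paired the replicates gives, for each peak, the matched signal in each of them. Spearman's rho between these was 0.531 over the 48 peaks of the span, or 0.503 over 47 with 1 peak per matched pair. It was 0.256 over the 122 on the sides and 0.275 over all ranked peaks. These coefficients describe peaks of the same 2 libraries, taken to share a control, and no p-value was attached to them.

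By place, the span had higher pooled medians than the sides in coding exons, introns and intergenic DNA, but in replicate 1 alone this did not hold for introns. The median in coding exons was 41.4 over 33 peaks in the span and 25.2 over 69 on the sides. In introns it was 45.6 over 7 peaks in the span and 19.3 over 23 on the sides. In intergenic DNA it was 64.1 over 5 peaks in the span and 25.8 over 22 on the sides. Summits in untranslated exons were few, with medians of 21.9 over 3 peaks in the span and 21.7 over 8 on the sides. In replicate 1 the intron median was 18.5 over 8 peaks in the span and 20.8 over 11 on the sides, and in replicate 2 it was 31.3 over 6 in the span and 16.2 over 9 on the sides. Coding exon and intergenic medians were higher in the span in both replicates. Within the span, pooled signal was 39.4 at the 36 summits in any exon and 50.1 at the 12 others, a ratio of 0.787. In replicate 1 alone that order was turned round, with 28.5 at 33 exonic summits and 18.6 at 15 others. In replicate 2 the values were 26.4 at 23 and 27.1 at 10. The order of exonic and other summits inside the span therefore differed between the replicates.

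**Figure D3:**
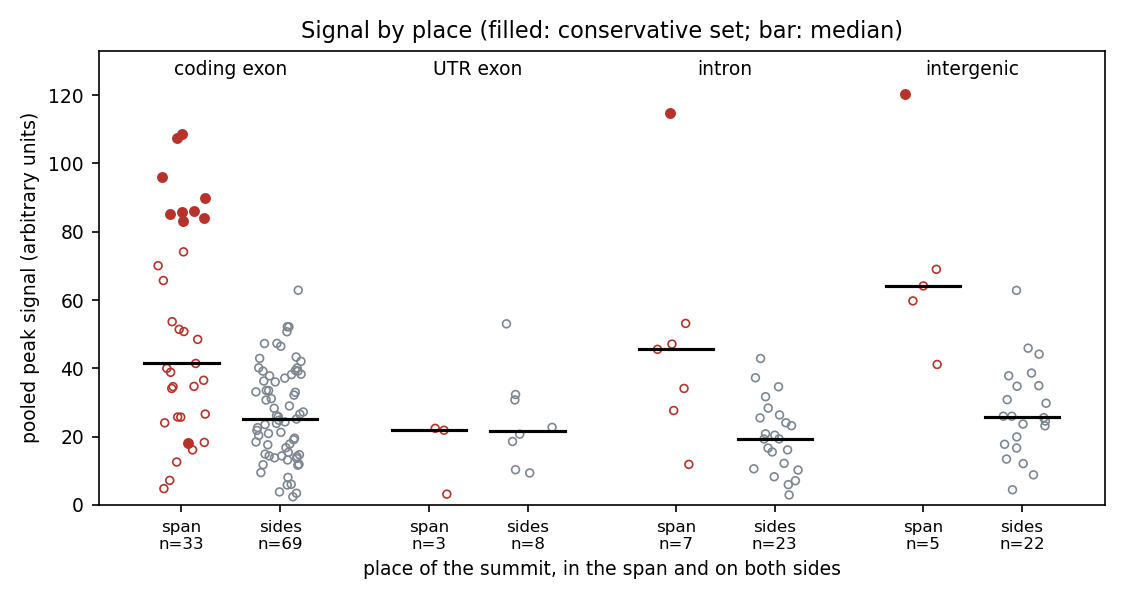
Pooled signal (arbitrary units) of ranked peaks by the place of the summit, for the span (red, left of each pair) and both sides (grey, right); filled points are conservative peaks and bars are medians. Medians are 41.4 in the span and 25.2 on the sides for coding exons, 45.6 in the span and 19.3 on the sides for introns, and 64.1 in the span and 25.8 on the sides for intergenic summits.

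Of the 12 conservative summits of the span 10 (83.3%) were in exons, all of them coding, against 19.5% of the 966 other conservative peaks and 36.7% of all ranked peaks. Exonic summits were common here, at 36 of the 48 ranked span peaks and 77 of the 122 on the sides (63.1%). A high exonic share was thus not particular to the conservative peaks. The span is itself rich in exons, which make up 64.7% of its bases and 51.0% of those of the sides. Among the other conservative peaks without an RNA gene within 200 bp, 33.3% of 520 were exonic. A transcription start site of a protein-coding gene lay within 500 bp of 5 of the 12 summits (41.7%), against 24.8% of the other conservative peaks and 41.0% of the ranked peaks on the sides.

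The genes beside the 12 peaks were mostly protein-coding. Within 200 bp of their summits there was a tRNA, snoRNA or snRNA gene at 0 of 12, against 40.6% of the other conservative peaks. Any RNA gene lay beside 1 of 12, F26F4.14, against 46.2% of the others, so that 520 of the 966 others also lacked one. GGTTCG, the core of the B box that RNA polymerase III factors use inside tRNA genes, was searched on both strands in 201 bp around each summit. It was present at 0 of 12 peaks, at 32.1% of the other conservative peaks and at 4.50% of all ranked peaks. Among the other conservative peaks the share was 60.7% at the 392 with a tRNA, snoRNA or snRNA gene and 12.1% at the 520 without an RNA gene. GAGTGG, taken from the A box and a different string counted separately in the same way, was present at 0 of 12, at 15.3% of the others, at 11.2% of those without an RNA gene and at 5.71% of all ranked peaks. The sequences printed above hold neither string near their summits, which says only that these letters are not in that window.

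In strength the 12 peaks had a median near that of the whole conservative set. Their median pooled signal was 88.0, against 87.9 over all conservative peaks, and 6 of the 12 exceeded 87.9. Among the other conservative peaks the median was 78.8 at the 520 without an RNA gene within 200 bp. At the 392 with a tRNA, snoRNA or snRNA gene it was 113.0. By signal the 12 peaks of the span were 246th to 966th, and 0 were among the 200 strongest. Their IDR values lay between 0.00108 and 0.00539, so 0 of 12 were at or below 0.001, where 237 conservative peaks of the genome were. All 12 had the commonest width, 264 bp, as did 96.2% of the others.

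Base composition moved with the signal. The median GC content was 44.9% at the 12 conservative peaks, 39.0% at the 48 ranked peaks of the span and 37.7% at the 122 on the sides, and it was 45.1% at the other conservative peaks. Spearman's rho between GC content and pooled signal was 0.409 in the span, 0.329 on the sides and 0.326 over all ranked peaks. All bases of the span were 36.9% GC, against 35.7% on the sides. The part of base composition in the higher signal of the span was not tested.

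The genome was then divided into 3014 other stretches of the span's length with at least 10 ranked peaks each. Their median signals had a median of 23.7 (quartiles 21.7 and 25.9), and 0 of them reached the 43.5 of the span. The highest was 41.4, on III from 9288666 to 9320152, over 11 ranked peaks of which 0 were conservative. Next came 39.5 on V from 10453685, with 3 conservative peaks at F22E12.1, Y32F6B.6 and egl-9, and 37.7 on IV from 5037921, with 1 at a small RNA gene in or near C09B9.1. The fourth had 37.2, on IV from 16373241, where 6 conservative peaks lay at tRNA genes. The fifth had 36.8 on IV from 5069408, right beside the third, with 0 conservative peaks.

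Of these stretches 2295 (76.1%) held no conservative peak, and the largest number was 6, reached on IV from 16373241 and on III from 8627439. In the second of these, 5 of the 6 lay at small RNA genes. Counted away from tRNA, snoRNA and snRNA genes, the span held 12 and no other stretch more than 5. The 12 include both overlapping set-2 peaks. Without peaks that overlap a stronger one the span held 11, and the other stretches were not recounted in that way. An example with 5 is the stretch on IV from 7462420, with the histone genes his-61, his-62 and his-59. The span was placed on these same peaks and the other stretches were not, so the comparison describes where the span lies and is not a test.

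**Figure D4:**
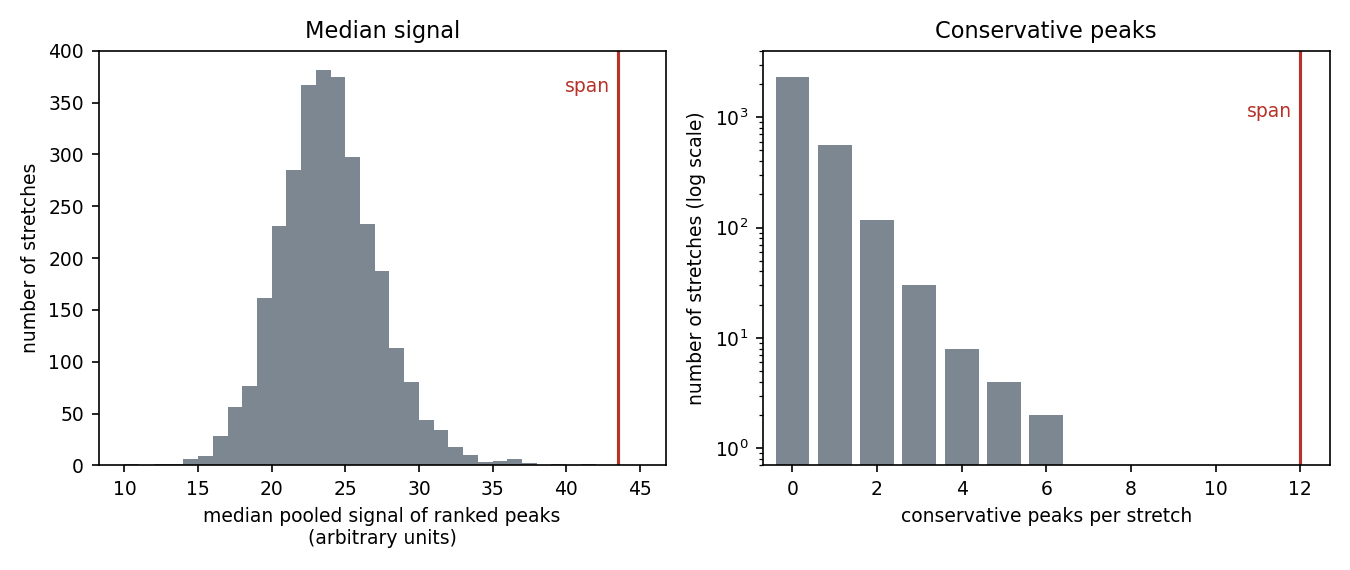
Number of same-length stretches of the genome by the median pooled signal of their ranked peaks (left, arbitrary units) and by their number of conservative peaks (right, log scale), with the span as a red line. The span lies at 43.5 and 12, and the highest of the other stretches reach 41.4 and 6. Both overlapping set-2 peaks count among the 12.

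The unc-119 gene (III 10902641 to 10908935), which the transgene also carries in a functional form, gave a second place where transgene and chromosome could share sequence. Which unc-119 sequence was used in the transgene is not given in the sources used here. The pooled list held 2 ranked peaks there, at 19.96 in an intron and 33.9 in a coding exon, and 0 were conservative. Replicate 1 had 4 ranked peaks in the gene, between 9.34 and 24.6, and no values of replicate 2 are given for it. The pooled and replicate 1 values at unc-119 were thus within the range of the sides of the span in the same lists.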

How the data were processed

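Whole L4 larvae of 1 group, 2 biological replicates, were profiled by ChIP-seq, and no contrast between groups was possible. The authors deposited ranked and thresholded peak lists on ce11, per the file records, for each replicate and for pooled reads. The deposited signal is the enrichment per peak in arbitrary units. The deposited score, up to 1000, and −log10 values of the IDR follow the agreement between paired lists. The file records name an alignment shared by all lists, taken to be the control. The aligner, the caller and the depth were not stated, so no interval that needs depth was set. The 6 matched-signal columns of the lists that do not pair the replicates were not used.

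Peaks were placed by their summits on Ensembl release 115 genes (WBcel235, the same assembly as ce11), coding exon before UTR, intron and intergenic, with 1-based coordinates, using python 3.11.15, pandas 2.3.3 and scipy 1.17.1. Sequences came from the RefSeq genome of that assembly. Scripts were tested on simulated peaks. Overlap meant at least 1 bp. The members, the span and all lists were chosen with earlier results of these data known, so values are described without tests. All 9 members are named, and other genes by their place at an edge, a conservative peak or a high signal. Alternatives covered the list, the replicate, the place rule, the IDR limit and the reach of the span.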

Additional observations from a re-analysis of the deposited data

How the results depend on the processing

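The ratio of the span's median signal to that of the sides, 1.82, was between 1.47 and 1.53 when 1 replicate was left out and its partner's own list used, and 1.92 in the other pooled list. Those lists hold other peaks and their signals are not scaled alike. The count of 12 conservative peaks was 0 at a global IDR of 0.001. With 1 replicate left out, its partner's own thresholded list held 5 peaks in the span in either case. Such a list does not pair the replicates, so its threshold is unlike that of the 12. In replicate 2 the 5 leave out the edge peak, whose summit lay 7 bp beyond the left edge. The ratio of exonic to other signal inside the span, 0.787, was between 0.975 and 1.54 with a replicate left out, reversed without replicate 2, and the cause was not tested. Counting any overlap of 1 bp gave the same 3 values. Leaving out peaks at small RNA genes could not change them, since no ranked peak of the span or the sides lay at such a gene. Using the rest of chromosome III or narrowing the span by 2 kb at each end was run for the ratio to the sides, and counting coding sequence alone or placing a peak by most of its bases for the exonic ratio; these kept their directions. So did leaving out peaks that overlap a stronger one, an alternative added after seeing the data, which gave 1.85, 11 and 0.812. No paired analysis was possible because there was 1 group. The unknown depth limits every count of peaks: a place without a ranked peak is not shown to lack signal.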
